A study of Mus musculus with 2 samples.

Results

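Described here are 36 genes that encode the mTORC1 kinase complex and the machinery that reports amino acids to it, of 42392 gene IDs in the expression table. They were given as a list of known subunits and regulators, and each was found in the table by its symbol, on 1 gene ID each. All 36 are protein-coding in RefSeq. The values come from 1 RNA-seq library of hair follicle stem cells, which reside in the bulge of the follicle and rebuild it in each cycle, sorted from the skin of female mice in early anagen, the growth phase of the follicle. The labels give the stage as anagen, and the sample's title as AnaII-III and as a control. The genotype is K15-CrePGR; Shh+/-, that is, a Cre fused to the progesterone receptor under a keratin 15 promoter, together with 1 functional Shh allele, and the treatment was RU486 for 8 days. A telogen sample with the same genotype and treatment belongs to the series and was not analysed here. How many animals were pooled for the library is not in the labels.

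mTORC1 is a protein kinase complex on the lysosome surface that promotes protein synthesis and growth when amino acids and growth factors are present. Amino acids act through the Rag GTPases, which work as a dimer of RagA or RagB with RagC or RagD, are held on the lysosome by the Ragulator complex, and bring mTORC1 to the small GTPase Rheb, its direct activator. GATOR1 turns the Rag dimer off, GATOR2 opposes GATOR1, folliculin acts on the RagC or RagD side, and the TSC complex, which receives growth factor and stress signals, turns Rheb off. In the skin, this pathway is known for its part in the exit of follicle stem cells from rest.

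All values are TPM, a transcript level that the authors scaled to gene length and to the library's total, so levels can be set side by side between genes of the library. With 1 library no value has an error and no difference between genes could be tested, and the read depth behind a TPM value is unknown. The 10 genes listed as bulge markers lay between 16.1 TPM for Nfatc1 and 3364 TPM for Krt15. Between these stood Col17a1 at 398 TPM, Postn at 288 TPM, Lhx2 at 171 TPM and Cd34 at 132 TPM. Itga6 stood at 99.4 TPM, Lgr5 at 63.9 TPM, Sox9 at 52.1 TPM and Tcf7l1 at 36.7 TPM. How specific each of them is to the bulge was not tested. Of markers of other cell types, all 6 of fibroblasts and all 4 of suprabasal epidermis reached 1 TPM. So did 4 of 5 of melanocytes, 3 of 5 of leukocytes and 3 of 4 of endothelium. Of all nuclear protein-coding genes 56.1% reached 1 TPM, so the leukocyte count is near that share. Summed levels were 879 TPM for fibroblasts, 186 TPM for suprabasal epidermis, 43.7 TPM for melanocytes, 28.9 TPM for leukocytes and 8.76 TPM for endothelium. Among those of fibroblasts, the 3 fibrillar collagen genes stood at 237 to 287 TPM, Dcn at 63.9 TPM, Lum at 11.8 TPM and Pdgfra at 1.44 TPM. Melanocyte genes reached 12.6 TPM with Sox10 at 0.602 TPM, and leukocyte genes reached 13.2 TPM with Ptprc at 0.264 TPM. Endothelial genes reached 4.65 TPM with Kdr at 0.436 TPM, and the globin genes Hbb-bs and Hba-a1 stood at 99.6 and 45.5 TPM. Of the suprabasal genes, Krt10 stood at 138 TPM, Krt1 at 33.0 TPM, Ivl at 7.58 TPM and Lor at 6.77 TPM. No marker gene of these lists was listed at 0. The part of other cells in the levels given here was not tested, and in a bulk sample fewer cells of a type and less RNA per cell cannot be told apart.

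The anagen library expressed nearly the whole machinery, at levels spread over the range of its expressed genes. Of the 36 members, 34 reached 1 TPM, or 94.4%, against 56.1% of all 20736 nuclear protein-coding genes, and 28 reached 5 TPM, or 77.8%, against 42.5%. The median over all 36 was 16.7 TPM, beside 2.45 TPM over all protein-coding genes and 12.5 TPM over the 11639 that reached 1 TPM, hereafter the expressed genes and the expressed median. That last median was exceeded by 19 members, or 52.8% of all 36, against 28.1% of all protein-coding genes. Of the 34 members at 1 TPM or above, those 19 are 55.9%, where 50% of the expressed genes lie above the median by construction. The share of members at 1 TPM was well above the background, while the share of expressed members in the upper part of the expressed range was closer to it. The members spread from Rragb at 0.0243 TPM to Ddit4 at 109 TPM. A gap separated the 2 members under 1 TPM, Rragb and Rragd, from the next lowest, Fnip2 at 2.82 TPM.

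**Figure D1:**
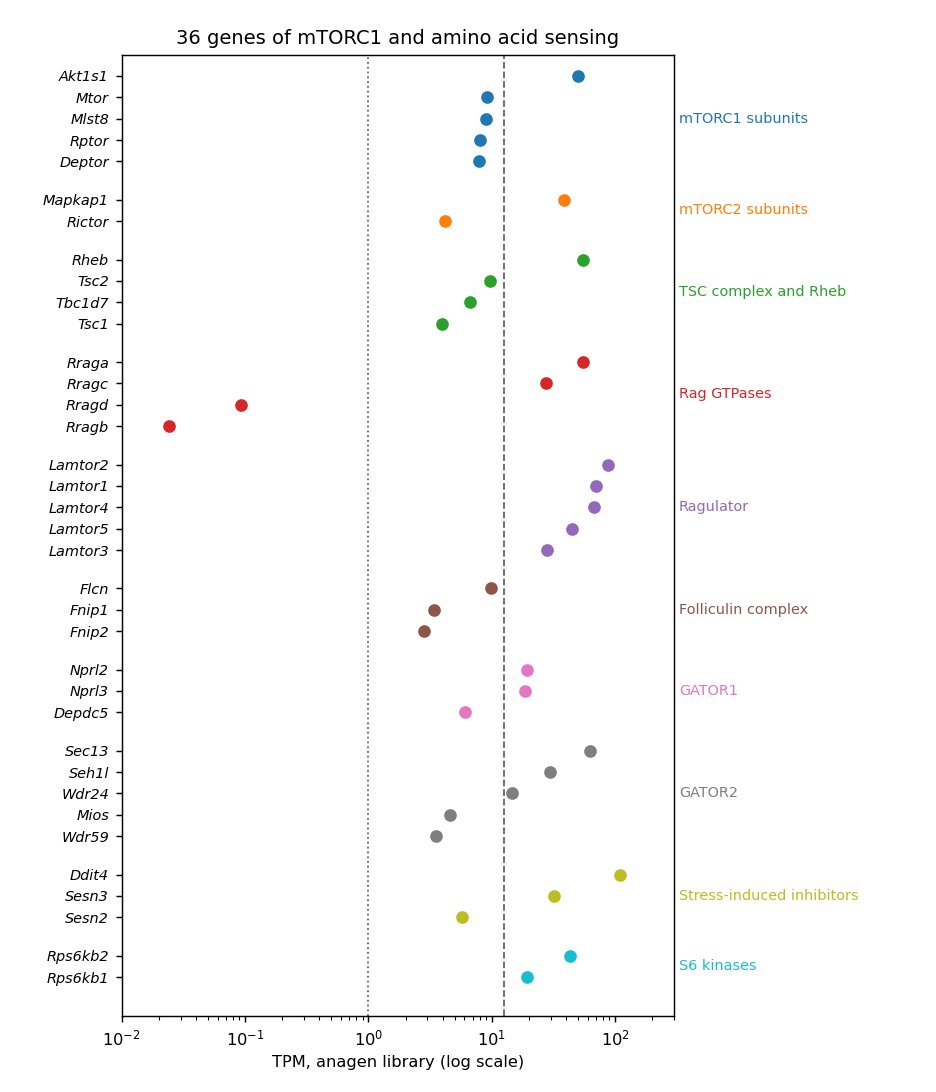
Level of each of the 36 members in the anagen library, in TPM on a log axis, grouped and coloured by complex or role. The dotted line is 1 TPM and the dashed line, at 12.5 TPM, is the median level of protein-coding genes that reached 1 TPM; all 5 Ragulator genes lie to its right and all 3 genes of the folliculin complex to its left.

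**Figure D2:**
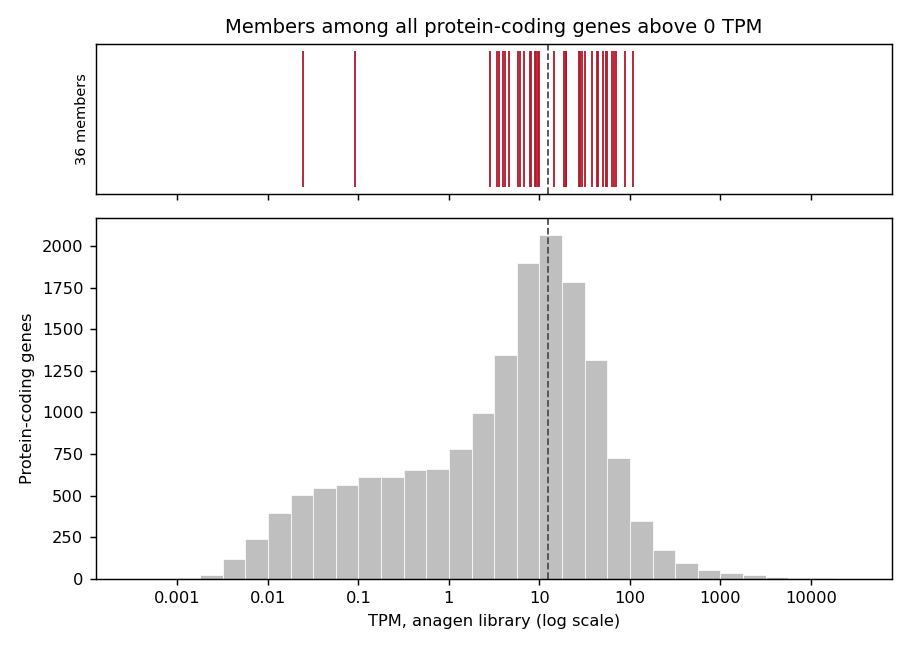
Number of protein-coding genes above 0 TPM in bins of TPM on a log axis (lower panel), with a line for each of the 36 members (upper panel). The dashed line marks 12.5 TPM; 19 members lie to its right, and Rragb and Rragd stand apart on the left.

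Of the Rag GTPase genes, 1 of each class was expressed and the other was nearly at 0. Rraga, which encodes RagA, stood at 54.9 TPM, higher than 87.1% of expressed protein-coding genes (ENSMUSG00000070934, GRCm38 chromosome 4, 86575673 to 86577285). Rragb, which encodes its close relative RagB, stood at 0.0243 TPM (ENSMUSG00000041658, chromosome X, 153137644 to 153190192). Rraga therefore held 99.96% of the summed level of the RagA and RagB genes. In the second class, Rragc, which encodes RagC, stood at 27.6 TPM (ENSMUSG00000028646, chromosome 4, 123917433 to 123936997) and Rragd, which encodes RagD, at 0.0920 TPM (ENSMUSG00000028278, chromosome 4, 32982998 to 33022180). Rragc held 99.7% of that pair. The ratio was 2258 for Rraga over Rragb and 300.3 for Rragc over Rragd. After adding 1 TPM to each value the ratios were 54.6 and 26.2, so their size rests on how the very low values are treated. RagA and RagB are near-identical proteins, and reads that match both genes could be assigned to either, so the split of that pair carries this uncertainty. Rraga was 1.99-fold above Rragc, its partner class.

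The 250 bases before the RefSeq start of the Rag genes are shown because the 2 genes of each class differ more in level than the paralogs of any other member. They are from RefSeq on assembly GRCm38.p6, written in the direction of transcription, with matches to CACGTG in capitals. CACGTG is the palindromic E-box core read by TFE3, TFEB and other factors of their family, and being palindromic it reads the same on either strand.
Rraga (chr4:86575423-86575672, plus strand): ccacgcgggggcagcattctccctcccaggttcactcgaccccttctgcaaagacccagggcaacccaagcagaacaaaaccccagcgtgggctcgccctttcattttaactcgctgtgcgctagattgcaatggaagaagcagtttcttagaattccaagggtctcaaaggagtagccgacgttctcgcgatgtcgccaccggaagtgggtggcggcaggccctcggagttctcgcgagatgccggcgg
Rragb (chrX:153139708-153139957, plus strand): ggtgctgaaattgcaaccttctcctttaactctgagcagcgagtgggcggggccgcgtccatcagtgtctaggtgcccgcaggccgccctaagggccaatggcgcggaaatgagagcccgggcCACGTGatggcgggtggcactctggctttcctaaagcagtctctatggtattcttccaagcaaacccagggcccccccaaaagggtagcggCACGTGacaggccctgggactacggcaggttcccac
Rragc (chr4:123917183-123917432, plus strand): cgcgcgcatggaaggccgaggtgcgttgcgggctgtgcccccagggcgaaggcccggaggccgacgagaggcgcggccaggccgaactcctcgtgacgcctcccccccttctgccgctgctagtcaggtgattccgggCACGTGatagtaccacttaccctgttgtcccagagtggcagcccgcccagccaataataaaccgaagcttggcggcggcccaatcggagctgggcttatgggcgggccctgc
Rragd (chr4:32982748-32982997, plus strand): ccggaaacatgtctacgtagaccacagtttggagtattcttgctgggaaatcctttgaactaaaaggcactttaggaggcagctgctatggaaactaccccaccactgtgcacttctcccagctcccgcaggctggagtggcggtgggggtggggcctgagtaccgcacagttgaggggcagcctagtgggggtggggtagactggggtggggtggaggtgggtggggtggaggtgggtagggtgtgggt

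The Rragb window held 2 matches, 127 and 36 bases before the start, and the Rragc window held 1, at 112 bases. The windows of Rraga and Rragd held none. A match thus stood in front of the lowest of all members and in front of an expressed one. The windows held 19 CpG dinucleotides for Rraga, 14 for Rragb, 24 for Rragc and 5 for Rragd, against a median of 6 over all 32851 RefSeq promoter windows of this length and 16 over those of expressed protein-coding genes. Of the 4, only the Rragd window lay below the median of all windows. The Rragb window lies inside the annotated span of its gene, so it precedes a start other than the outermost one.

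The Ragulator genes had the highest median of the 10 role groups and the narrowest range of the groups of 4 or more genes. Lamtor1, whose lipid-modified product anchors the complex to the lysosome, stood at 70.6 TPM. Lamtor2 and Lamtor3, whose products form a dimer within it, stood at 87.1 and 28.1 TPM. Lamtor4 and Lamtor5, the other dimer, stood at 67.3 and 44.9 TPM. All 5 lay above the expressed median and the highest was 3.10-fold above the lowest. Their median of 67.3 TPM was 3.60-fold that of the GATOR1 genes and 4.60-fold that of the GATOR2 genes. It was 4.86-fold the median of the 4 Rag genes, which at 13.9 TPM falls between the expressed and the nearly absent genes of that group and is the level of none of them, and 1.63-fold the median of the 2 Rag genes at 1 TPM or above, 41.3 TPM.

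Of the genes that act on the Rag GTPases, GATOR1 had 2 subunits at nearly equal levels. Nprl2 stood at 19.4 TPM and Nprl3 at 18.7 TPM, a ratio of 1.04. Depdc5, whose product is the largest subunit and binds the Rag dimer, was 3.21-fold below Nprl2 at 6.06 TPM. In GATOR2 the levels ran from Sec13 at 63.2 TPM and Seh1l at 29.8 TPM through Wdr24 at 14.6 TPM to Mios at 4.58 TPM and Wdr59 at 3.55 TPM. Sec13 and Seh1l, the highest 2, also encode subunits of the nuclear pore, and Sec13 a coat protein of vesicles that leave the endoplasmic reticulum. The 3 subunits known for GATOR2 alone had the lower values, and Sec13 was 17.8-fold above Wdr59.

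The folliculin complex was the lowest of the 10 role groups, with a median of 3.38 TPM. Flcn, which encodes folliculin, stood at 9.79 TPM. Its binding partners Fnip1 and Fnip2 stood at 3.38 and 2.82 TPM, a ratio of 1.20. All 3 reached 1 TPM and none reached the expressed median. Unlike the Rag genes, the 2 partner genes were both expressed and close in level.

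Within the kinase complexes, Mtor, the kinase itself, stood at 9.14 TPM (ENSMUSG00000028991, chromosome 4, 148448582 to 148557685), higher than 40.3% of expressed protein-coding genes. Its other core partners were close to it. Mlst8, a subunit of mTORC1 and mTORC2 alike, stood at 9.01 TPM, and Rptor, the scaffold raptor that makes the complex mTORC1, at 7.99 TPM. Deptor, an inhibitor of both complexes, stood at 7.86 TPM. These 4 genes span a range of 7.86 to 9.14 TPM. The exception was Akt1s1, which encodes PRAS40, the inhibitor of mTORC1 that AKT releases, at 50.4 TPM, 5.51-fold above Mtor and 6.41-fold above Deptor. Of the subunits that define mTORC2, Rictor stood at 4.18 TPM and Mapkap1, which encodes SIN1, at 38.5 TPM, a ratio of 9.20. Rptor was 1.91-fold above Rictor.

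Rheb and the complex that turns it off lay far apart. Rheb stood at 55.2 TPM, higher than 87.2% of expressed protein-coding genes. Tsc2, which encodes the subunit with GTPase-activating function, stood at 9.61 TPM, Tbc1d7, the third subunit, at 6.70 TPM, and Tsc1, the scaffold, at 3.97 TPM. All 3 TSC genes were thus below the expressed median. Rheb was 5.74-fold above Tsc2 and 13.9-fold above Tsc1. Its relative Rhebl1 stood at 3.71 TPM, 14.9-fold below it. The levels of Rheb and Rraga, the GTPases at the end of the growth factor branch and the amino acid branch, were close, at 55.2 and 54.9 TPM.

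Of the stress-induced inhibitors, Ddit4 was the highest of all 36 members. Ddit4 encodes REDD1, which acts through the TSC complex and is induced by hypoxia, glucocorticoids and ATF4, and it stood at 109 TPM, higher than 94.3% of expressed protein-coding genes (ENSMUSG00000020108, chromosome 10, 59949675 to 59951770). Its relative Ddit4l was 25.3-fold lower at 4.32 TPM. Sesn2, the sestrin that binds leucine and is an ATF4 target, stood at 5.76 TPM, while Sesn3, a target of FOXO factors, stood at 31.9 TPM, 5.54-fold higher. Sesn1, a p53 target outside the member list, stood at 31.8 TPM, next to Sesn3. The levels of further genes known to be induced by ATF4 are given as a description, and the activity of ATF4 was not tested. Beside Atf4 itself at 127 TPM, Ddit3 stood at 20.1 TPM, Asns at 16.1 TPM, Chac1 at 0.610 TPM and Trib3 at 0.394 TPM, and the amino acid sensor kinase gene Eif2ak4 at 6.26 TPM. With Ddit4l, these make a list of 7 genes, of which 5 reached 1 TPM, against 56.1% of all nuclear protein-coding genes.

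Both S6 kinase genes, whose products carry the mTORC1 signal to ribosomes and translation factors, were above the expressed median. Rps6kb2 stood at 42.7 TPM and Rps6kb1 at 19.4 TPM, so that Rps6kb2 was 2.20-fold higher. RNA levels give neither the phosphorylation of these kinases nor the activity of mTORC1.

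**Figure D3:**
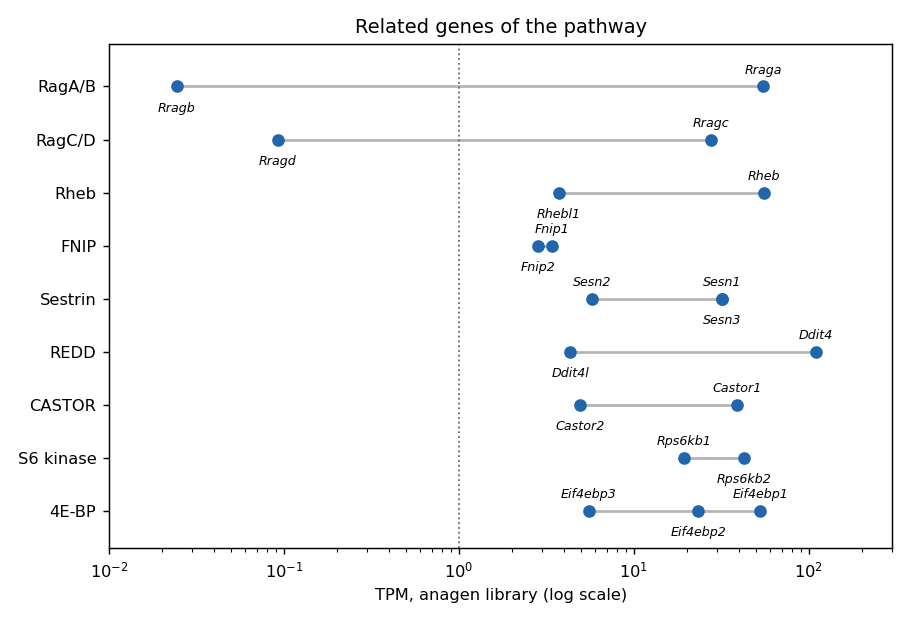
Level of related genes of the pathway in the anagen library, in TPM on a log axis, with 1 row for each family, a point for each gene and a line joining its lowest and highest. The dotted line is 1 TPM; it separates the genes of the RagA/B and the RagC/D family and of no other family drawn.

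Other genes of the pathway gave a background to these levels. Of 74 further genes in 7 lists, 72 were at 1 TPM or above, against 56.1% of all nuclear protein-coding genes. The median over all 74 was 19.996 TPM. A list of 9 genes of direct sensors and of KICSTOR, the scaffold that holds GATOR1 on the lysosome, had every gene at 1 TPM or above. The arginine sensor gene Castor1 was the highest of them at 38.8 TPM, 7.91-fold above its relative Castor2 at 4.91 TPM. Slc38a9, which encodes the lysosomal arginine sensor, was the lowest at 1.48 TPM, 26.2-fold below Castor1. Of KICSTOR, Kptn stood at 12.2 TPM, Itfg2 at 6.71 TPM and Kics2 at 2.35 TPM. Bmt2, which encodes the S-adenosylmethionine sensor SAMTOR, stood at 6.47 TPM, and Lars, a leucyl-tRNA synthetase also described as a leucine sensor, at 14.6 TPM.

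The V-ATPase, the lysosomal proton pump that works with Ragulator, was the most highly expressed of these lists. All 16 of its listed genes reached 5 TPM, against 42.5% of all nuclear protein-coding genes, and their median was 37.2 TPM. The proton-channel subunit gene Atp6v0c led at 142 TPM, followed by Atp6v0e at 121 TPM, Atp6v1g1 at 115 TPM and Atp6v1f at 103 TPM. The large membrane subunit genes Atp6v0a1 and Atp6v0a2 were the lowest of those listed, at 11.7 and 10.4 TPM.

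The 17 substrate and effector genes were all at 1 TPM or above, against 56.1% of all nuclear protein-coding genes, and their median was 23.3 TPM. Rps6, the ribosomal protein that the S6 kinases phosphorylate, stood at 344 TPM, an uncertain value since ribosomal protein genes have processed pseudogene copies. Eif4b, an S6 kinase substrate of the initiation machinery, stood at 96.9 TPM. Pdcd4, a translation inhibitor that S6 kinase removes, stood at 68.9 TPM and Eif4ebp1, the cap-binding inhibitor 4E-BP1, at 52.8 TPM. Lpin1 and the adaptor gene Grb10 were lowest, at 1.76 and 1.27 TPM. Among upstream inputs, the 19 listed genes of the insulin, PI3K, AKT and AMPK arms were at 1 TPM or above, and their median was 18.9 TPM. Akt1 stood at 91.4 TPM, the LKB1 gene Stk11 at 66.5 TPM, the PI3K regulatory subunit gene Pik3r2 at 61.6 TPM and Akt2 at 44.3 TPM. The insulin receptor substrate gene Irs1 and the AMPK catalytic subunit gene Prkaa2 were the lowest of those listed, at 2.92 and 1.38 TPM. Of the genes for mTORC2 accessory subunits and for assembly of the kinase, Prr5 stood at 18.9 TPM, Telo2 at 18.7 TPM, Tti1 at 6.57 TPM, Tti2 at 2.77 TPM and Prr5l at 1.76 TPM.

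**Figure D4:**
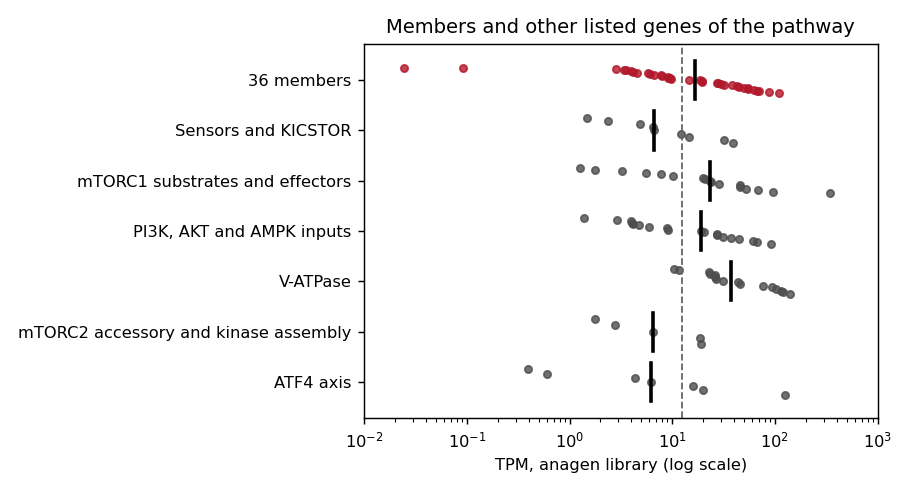
Level of the 36 members (red) and of the genes of the other pathway lists (grey) in the anagen library, in TPM on a log axis, with a point for each gene. Black bars are list medians and the dashed line, at 12.5 TPM, is the median level of protein-coding genes that reached 1 TPM. The lowest listed V-ATPase gene is Atp6v0a2 at 10.4 TPM.

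Promoter windows were at hand for 31 of the 36 members. Deptor, Lamtor3, Wdr24, Seh1l and Rps6kb2 had no entry. The 32 windows of these 31 genes, where Mapkap1 has 2, had a median of 16 CpG dinucleotides, as had the windows of all expressed protein-coding genes, with a range of 3 for Lamtor5 to 40 for Rictor. CpG number and level did not run in parallel at these ends, since Lamtor5 stood at 44.9 TPM and Rictor at 4.18 TPM. CACGTG occurred in the windows of 7 members, or 22.6% of the 31, against 6.02% of all windows and 8.30% of those of expressed protein-coding genes. Those 7 were Fnip1, Lamtor1, Lamtor4, Rheb, Rragb, Rragc and Tbc1d7, which range from 0.0243 to 70.6 TPM. The longer form TCACGTGA, also palindromic and holding CACGTG within it, occurred in no member's window, against 0.785% of all windows and 1.60% of those of expressed protein-coding genes, shares at which 32 windows would hold fewer than 1 match.

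The C/EBP-ATF site TGATGNAA, searched on both strands, is of interest because ATF4 is known to act through such sites. It occurred in the window of 1 member, Lamtor4, against 3.45% of all windows and 2.04% of those of expressed genes. The windows of Ddit4 and Sesn2 did not hold these letters, which says nothing of sites elsewhere in those genes. The matches outside the Rag genes are shown with 10 bases on each side, the match in capitals, so that their flanks can be compared. The TGATGNAA match of Lamtor4 lies on the opposite strand and stands last. The annotated span of Fnip1 begins at 54438107, within its printed stretch. Its distance of 75 bases therefore counts from a start other than the outermost one.
Rheb (chr5:24842442-24842467, minus strand, 96 bases before the start): cgcgcgcggtCACGTGggtgtgttgt
Lamtor1 (chr7:101905759-101905784, plus strand, 68 bases before the start): gccttcctatCACGTGccgcgggtcc
Lamtor4 (chr5:138255352-138255377, plus strand, 120 bases before the start): agaaagttaaCACGTGaacagctttt
Lamtor4 (chr5:138255368-138255393, plus strand, 104 bases before the start): aacagcttttCACGTGtaaaccaaac
Fnip1 (chr11:54438094-54438119, plus strand, 75 bases before the start): agtttgctgcCACGTGatacggctcg
Tbc1d7 (chr13:43171539-43171564, minus strand, 53 bases before the start): ggttaacatcCACGTGtgggtgggac
Lamtor4 (chr5:138255450-138255477, plus strand, 22 bases before the start): aagactcctcTTACATCAccggactgtt

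A match is a description of these letters and shows neither binding nor a cause of the level behind it.

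**Figure D5:**
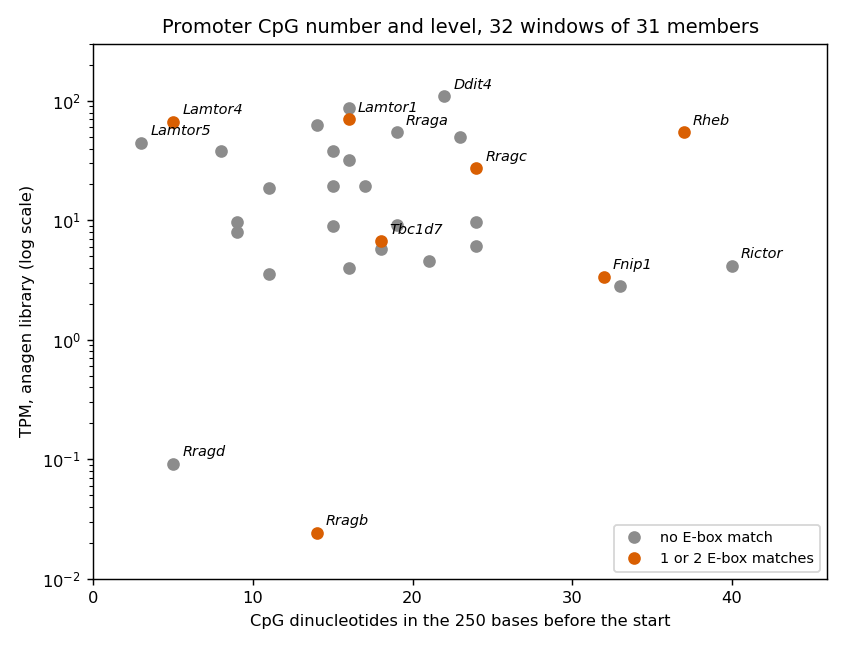
Number of CpG dinucleotides in the 250 bases before the start (horizontal) and level in TPM on a log axis (vertical) for 32 windows of 31 members. Orange points hold an E-box match; they lie between Rragb at 0.0243 TPM and Lamtor1 at 70.6 TPM.

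The loci of 8 members overlap another protein-coding gene in RefSeq, and the library kit is not stated to keep the strand. Reads in such a stretch could belong to either gene. The overlapping gene was listed at 12.6 TPM for Mtor (Angptl7), 16.2 TPM for Nprl3 (Mpg), 14.7 TPM for Rps6kb1 (Rnft1), 9.50 TPM for Nprl2 (Cyb561d2), 5.67 TPM for Tsc2 (Pkd1) and 2.68 TPM for Mlst8 (Bricd5). It was listed under 1 TPM for Lamtor1 (Tomt) and Fnip2 (Gm17359). The shared stretch of annotated span was 8159 bases for Fnip2, 5282 for Mtor, 1922 for Mlst8 and 740 for Nprl3. For Tsc2 it was 699 bases, for Lamtor1 571, for Rps6kb1 139 and for Nprl2 17.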

How the data were processed

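RNA-seq of sorted hair follicle stem cells was used in 1 anagen library. The deposited TPM values were computed by the authors, with Bowtie2 2.2.9 and RSEM 1.2.30 on build mm10, that is GRCm38, all named in the submitters' processing notes. For the annotation and filters, nothing was given in the sources at hand. Since TPM keeps no depth, no interval or detection limit could be set. The column was matched by its name, 1, to the anagen sample's numbered title, which is its only link to the stage. A further 11 columns of per-sample values stayed out, and the planned difference between anagen and telogen was not computed.

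Each gene ID was used once, after which the values summed to 1000000. For a symbol with several IDs the higher value was taken. Gene types, positions and promoters came from RefSeq tables of GRCm38.p6, matched by symbol. Expressed means 1 TPM or more, and no pseudocount was used except where stated. The members and lists were chosen with earlier results of these data known. All 36 members are named, and of other lists the 4 highest and 2 lowest genes or, up to 10 genes, all of them. Some further pathway genes are not reported here and enter no list, while the counts and medians of a list cover all its genes, named or not. Genes that overlap a member's locus were named after their values were seen. The coding-length and protein-identity steps that were planned were not run, since the protein sequences they need were not used here. Percentile and motif searches were checked on simulated data. Software was Python 3.11.15 with pandas 2.3.3, with numpy 2.4.6 and, for plots, matplotlib 3.10.9.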

Additional observations from a re-analysis of the deposited data

How the results depend on the processing

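The levels come from 1 library without a replicate and with unknown depth, which limits most the values under 1 TPM. Adding 1 constant to both values of a ratio cannot turn its direction, and each of the 36 members has 1 gene ID, so neither those ratios nor the sums over gene IDs test a direction. The number of members at 1 TPM or more was 34 under both rescalings, which raise every level and so could not lower it. At 5 TPM it was 28, or 77.8%, against 42.5% of all protein-coding genes. The median of protein-coding genes at 5 TPM or more was 18.6 TPM, and 18 members lay above it, in place of 19. They are 18 of the 28 members at 5 TPM or more, where 50% of such genes lie above by construction. Rescaling without mitochondrial genes and the 50 highest genes multiplied every level by 1.72, and rescaling over nuclear protein-coding genes by 1.53, so the median over all members became 28.7 and 25.5 TPM. It was 19.0 TPM over members at 1 TPM or more. The first rescaling gave group medians of 15.5 for mTORC1, 36.8 for mTORC2, 14.0 for TSC with Rheb, 23.9 for the Rag GTPases, 116 for Ragulator, 5.83 for the folliculin complex, 32.2 for GATOR1, 25.2 for GATOR2, 55.0 for the stress-induced inhibitors and 53.5 for the S6 kinases, all in TPM, and the second, in that order, 13.8, 32.7, 12.5, 21.2, 103, 5.18, 28.6, 22.4, 48.9 and 47.6 TPM. Ratios after adding 1 TPM were 54.6 for Rraga over Rragb, 26.2 for Rragc over Rragd, 1.15 for Fnip1 over Fnip2, 4.87 for Sesn3 over Sesn2, 2.14 for Rps6kb2 over Rps6kb1, 1.74 for Rptor over Rictor, 2.14 for Tsc2 over Tsc1, 1.04 for Nprl2 over Nprl3, 4.60 for Ragulator over Rag GTPases, 3.47 for Ragulator over GATOR1 and 4.37 for Ragulator over GATOR2. After adding 0.1 TPM they were 442 for Rraga over Rragb, 144 for Rragc over Rragd, 1.19 for Fnip1 over Fnip2, 5.47 for Sesn3 over Sesn2, 2.20 for Rps6kb2 over Rps6kb1, 1.89 for Rptor over Rictor, 2.39 for Tsc2 over Tsc1, 1.04 for Nprl2 over Nprl3, 4.83 for Ragulator over Rag GTPases, 3.59 for Ragulator over GATOR1 and 4.57 for Ragulator over GATOR2. Weighting by coding length and the rank correlation with protein length were not run. No paired analysis was possible because 1 library was used.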
